A study of Caenorhabditis elegans with 4 samples.

Results

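The genes described here are 9 genes of *Caenorhabditis elegans* that encode structural proteins of meiotic chromosomes: *syp-1*, *syp-2*, *syp-3*, *syp-4*, *htp-1*, *htp-2*, *htp-3*, *him-3* and *rec-8*. They were chosen by name, and all 9 were found among the 19971 protein-coding genes that a RefSeq gene table places on the 6 chromosomes. The series is a ChIP-seq study of HPL-2 in wild-type N2 larvae at the L3 stage, grown at 20 °C as a mixed population of males and hermaphrodites. It holds 4 samples: 2 ChIP libraries, made with the polyclonal rabbit antibody SDQ2340 to HPL-2, and 2 libraries of input DNA, which are not analysed here. All 4 samples were cross-linked with EGS for 20 min and with EGS and formaldehyde for 10 min. The values are peak positions and scores in 3 deposited lists, with 20533 peaks in the replicate 1 list, 16490 in the replicate 2 list and 23530 in the series-level list. The series-level list was made from the same study, so it is not a further replicate. Nothing in the labels says that the replicates came from separate cultures, and the spread between them may be technical. Chromatin came from whole larvae, so a peak cannot be assigned to germ cells or to somatic cells.

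The synaptonemal complex is the protein structure that joins paired homologous chromosomes along their length during meiosis. Its central region, which bridges the homologues, is built from SYP proteins. The chromosome axes on either side carry proteins with a HORMA domain (HTP-1, HTP-2, HTP-3 and HIM-3) and the meiotic cohesin subunit REC-8. HPL-2 is a worm homologue of heterochromatin protein 1, a family that binds methylated histone H3. It belongs to the synMuv B group of genes, which is known for keeping germline genes off in somatic cells.

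For each gene, peaks were sought in a window made of the gene body and 1 kb on each side. Gene positions are those of WBcel235, whereas the peak lists use WS220. Each placement was therefore repeated with all genes moved by 150 bp in both directions, and distances to genes are approximate. The table gives no strand, so promoter and 3′ end were not told apart. The sides are called lower and higher flank by coordinate. A peak was counted where it overlapped a zone by at least 1 bp.

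HPL-2 peaks lay in the windows of 6 of the 9 genes in the series-level list (*syp-2*, *syp-3*, *syp-4*, *htp-1*, *htp-3* and *rec-8*), against 47% of all protein-coding genes. The same 6 genes had a peak in the replicate 1 list, against 42.1% of all protein-coding genes. Only *syp-2*, *syp-3*, *syp-4* and *rec-8* had one in the replicate 2 list, against 35.7% of all protein-coding genes. Those 4 were therefore the genes with a peak in both replicate lists, against 29% of all genes. *syp-1*, *htp-2* and *him-3* had no peak in the window in any of the 3 lists, as was the case for 49% of all genes. Among protein-coding genes within the length range of the set, the shares were 41.5% for the series-level list and 23.2% for both replicate lists. Of the 5 members on chromosome arms, 4 had a series-level peak, against 54.5% of all genes there. Of the 4 in chromosome centres (each chromosome divided into 3 equal parts), 2 had one, against 34.6%. With 9 genes and 2 replicates the design allows no test of these shares, and they stand as a description. The absence of a peak does not show absence of HPL-2, since the threshold of each list and the read depth are unknown.

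**Figure D1:**
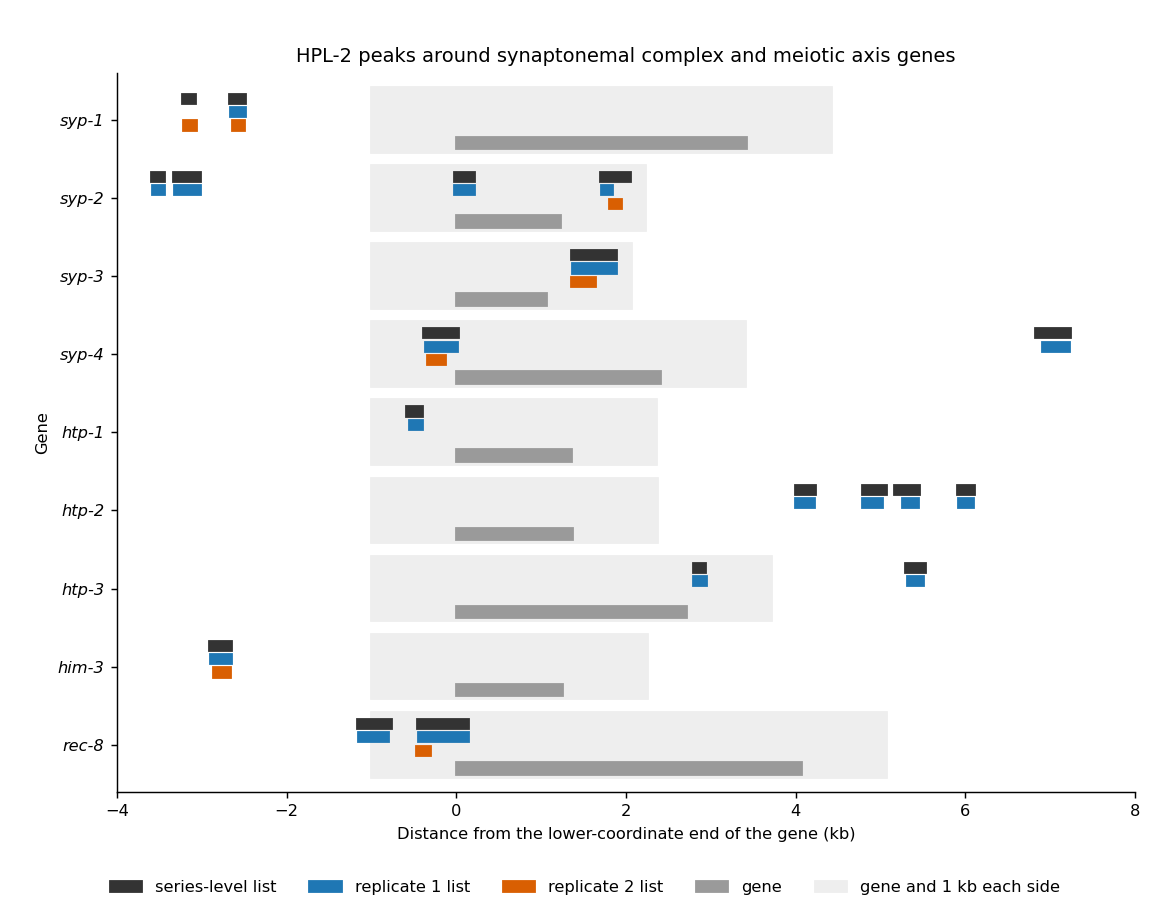
Peaks around the 9 genes, by distance in kb from the lower-coordinate end of each gene. Black, blue and orange bars are peaks of the series-level, replicate 1 and replicate 2 lists, dark grey bars are genes, and pale boxes are the gene with 1 kb on each side. The boxes of *syp-1*, *htp-2* and *him-3* are empty, and no peak lies wholly inside any of the 9 genes.

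By role, 3 of the 4 central region genes had a peak in both replicate lists, against 29% of all protein-coding genes. Of the 4 HORMA domain genes, *htp-1* and *htp-3* had a peak in the replicate 1 list (42.1% of all genes), and none of the 4 had a peak in the replicate 2 list (35.7% of all genes). The cohesin gene *rec-8* had peaks in both. With 4 genes or fewer in a group, these counts are too small to be read against the shares over all genes, and no test was made between the groups.

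*syp-4*, which encodes a central region protein, carried the highest-scoring peak of the set in the series-level and replicate 1 lists, while in replicate 2 the peaks at *syp-3* and *rec-8* scored higher. The series-level peak ran on chromosome I from 6847122 to 6847537 (WS220, 416 bp) with a score of 47.12, which exceeded the scores of 87.5% of the peaks in that list. In replicate 1 it ran from 6847140 to 6847534 with a score of 38.18, above 88.4% of that list. In replicate 2 it was shorter, from 6847162 to 6847383, with a score of 14.4, above 64.5% of that list. Score scales are not stated in the sources used here, so only ranks within a list can be compared. The replicate 2 peak lay wholly within the replicate 1 peak, with 222 bp in common. The longer 2 versions reached into the lower end of *syp-4* by 27 bp (series level) and 24 bp (replicate 1), less than the uncertainty between builds. The replicate 2 peak ended about 0.13 kb before the gene. In all 3 lists the peak also overlapped H27M09.6, annotated as an snRNA gene, and H27M09.7, annotated as an ncRNA, which lie in the lower flank of *syp-4*.

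*syp-3*, also a central region gene, had a single peak in each list, in its higher flank. The peak ran on chromosome I from 8664406 to 8664937 (532 bp) in the series-level list, from 8664410 to 8664947 (538 bp) in replicate 1 and from 8664404 to 8664693 (290 bp) in replicate 2. The lower edges of these peaks differed by a few bases, while the replicate 2 peak ended earlier. By the positions used, the space between *syp-3* and the next gene, *F39H2.3*, holds the whole peak, which touched no annotated gene. It began about 0.29 kb from *syp-3* in the series-level list. The series-level and replicate 1 peaks ended nearer to *F39H2.3* than the 150 bp allowed between builds, so they may reach that gene. The score was 23.42, above 69.9% of the series-level peaks. The replicate ranks were 45.4% in replicate 1 (score 9.77) and 80.7% in replicate 2 (score 25.76). The peak thus ranked below the middle of the replicate 1 list and in the upper part of the replicate 2 list. It filled 53.8% of the higher flank in replicate 1 and 29% in replicate 2.

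*syp-2*, another central region gene, had 2 series-level peaks, and the replicates shared only the weaker one. The first ran on chromosome V from 5536462 to 5536709 (248 bp, score 16.82), crossed the lower end of the gene and had 223 bp inside it. Replicate 1 had it from 5536454 to 5536709 with a score of 12.93, and replicate 2 had no peak there. The second ran from 5538180 to 5538550 (371 bp, score 8.85) in the higher flank, between *syp-2* and *cft-1*, and touched no annotated gene. Within it, replicate 1 had a peak of 147 bp from 5538187 to 5538333 (score 6.21) and replicate 2 a peak of 154 bp from 5538288 to 5538441 (score 4.85), with 46 bp in common. Both replicate peaks were low in their lists, above 26.5% of replicate 1 scores and 11.6% of replicate 2 scores.

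*rec-8*, which encodes the meiotic kleisin subunit of cohesin, had 2 series-level peaks on its lower side. The nearer one ran on chromosome IV from 13348659 to 13349276 (618 bp, score 14.23), the widest peak in the windows of the 9 genes, and had 155 bp inside the lower end of *rec-8*. Replicate 1 had it from 13348671 to 13349274 (604 bp, score 9.35). Replicate 2 had only its outer part, from 13348646 to 13348818 (173 bp, score 16.95), with 148 bp in common with the replicate 1 peak. This peak overlapped W02A2.12, a small protein-coding gene that adjoins *rec-8*, in all 3 lists. The farther peak, from 13347949 to 13348361 (413 bp, score 8.5), lay inside W02A2.9 and was also called in replicate 1 (13347962 to 13348330, score 5.15), not in replicate 2. Of the 9 genes *rec-8* also had the most peaks around it, with 38 series-level peaks in the 100 kb centred on the gene, 35 in replicate 1 and 26 in replicate 2. Over all protein-coding genes the medians were 16 (series level), 13 (replicate 1) and 9 (replicate 2). Fewer peaks than around *rec-8* were found for 84.4%, 86.1% and 81.9% of all genes, in the same order of lists. *rec-8* lies on a chromosome arm, and no median over arm genes alone was taken.

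Of the HORMA domain genes, *htp-1* and *htp-3* had peaks in the series-level and replicate 1 lists only. At *htp-1*, whose protein acts in pairing and in the control of synapsis, the series-level list had a peak on chromosome IV from 5389601 to 5389798 (198 bp) in the lower flank, about 0.39 kb from the gene. Its score of 3.68 exceeded 5.34% of the list, and the replicate 1 peak (5389626 to 5389796, score 3.00) exceeded 5.06% of its list. In replicate 2 the nearest peak was about 16.2 kb from *htp-1*. At *htp-3*, whose protein recruits the other HORMA domain proteins to the axis, the peak ran on chromosome I from 4829857 to 4830020 (164 bp) in the higher flank, about 0.061 kb from the gene, in the space before *F57C9.4*. Its distances to *htp-3* and to *F57C9.4* were both less than the 150 bp allowed between builds. The peak ranked near the middle of both lists that held it, with a score of 14.01 (above 52.2%) in the series-level list and 11.79 (above 54%) in replicate 1. In replicate 2 the nearest peak was about 9.83 kb from *htp-3*.

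The 3 genes without a peak in the window had their nearest series-level peak at similar distances, about 2.48 kb for *syp-1*, 2.61 kb for *htp-2* and 2.64 kb for *him-3*. The nearest series-level peak was farther away than that of *syp-1* for 41.6% of all protein-coding genes, than that of *htp-2* for 40.7% and than that of *him-3* for 40.5%. The nearest peak to *syp-1*, on chromosome V from 16401594 to 16401797 (score 22.92), reached the end of the chemoreceptor gene *sre-36*, within the uncertainty between builds, and both replicate lists had a peak within it. The nearest peak to *him-3*, on chromosome IV from 6974593 to 6974866 (score 10.25), lay within *pgl-1*, the neighbouring gene, which encodes a P granule protein. It was called in both replicates, with scores of 5.15 in replicate 1 and 16.17 in replicate 2. The 100 kb centred on *him-3* held 1 series-level peak, 1 replicate 1 peak and 5 replicate 2 peaks. By series-level peaks, 0.115% of all protein-coding genes had fewer around them. The share was 0.29% for replicate 1 peaks but 22.3% for those of replicate 2, so the stretch ranked among the sparsest in the first 2 lists and not in replicate 2. *htp-2*, a close paralogue of *htp-1*, had its nearest peak on chromosome IV from 6423512 to 6423758 (score 20.53), called in replicate 1 and not in replicate 2, where the nearest peak was about 35.5 kb away.

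**Figure D2:**
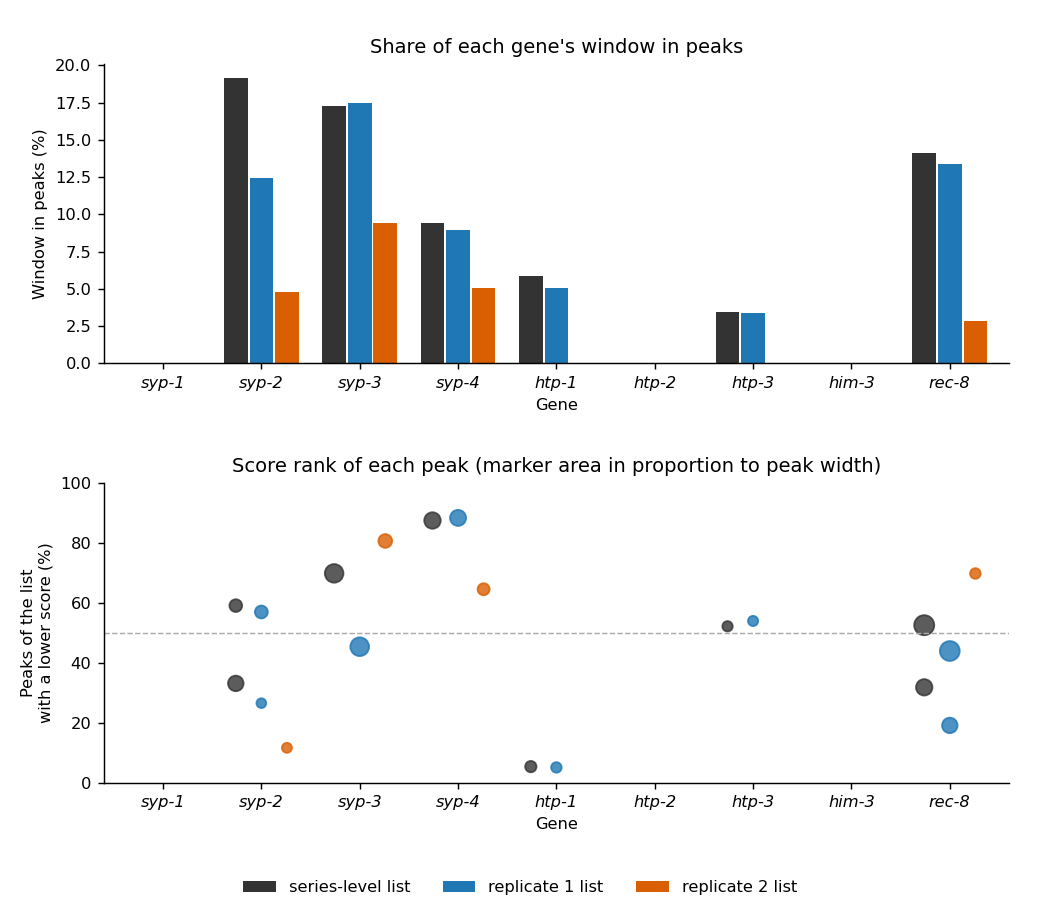
Upper plot: percent of each gene's window (gene body and 1 kb on each side) that lies in peaks, by list. Lower plot: percent of the peaks in the same list that score lower than each peak in the window, with the marker area in proportion to peak width and a dashed line at 50%. *syp-2*, *syp-3* and *rec-8* have the most of their window in series-level peaks (19.2%, 17.3% and 14.1%), and the *syp-4* peaks rank highest in the series-level and replicate 1 lists (87.5% and 88.4%).

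Coverage was highest at *syp-2*, *syp-3* and *rec-8* in the series-level list and in replicate 1. In the series-level list, *syp-2* had 19.2% of its window in peaks, *syp-3* 17.3%, *rec-8* 14.1%, *syp-4* 9.43%, *htp-1* 5.88% and *htp-3* 3.47%. In replicate 1 the values were 17.5% for *syp-3*, 13.4% for *rec-8*, 12.5% for *syp-2*, 8.95% for *syp-4*, 5.08% for *htp-1* and 3.41% for *htp-3*. In replicate 2 they were 9.44% for *syp-3*, 5.03% for *syp-4*, 4.77% for *syp-2* and 2.85% for *rec-8*. Every gene with a peak in both replicate lists had less of its window in peaks in replicate 2 than in replicate 1. The order of *syp-2*, *rec-8* and *syp-4* differed between the replicates, so these neighbours in the order cannot be separated, while *syp-3* was highest in both. Over all 9 windows together, 7.54% of bases lay in series-level peaks, 6.71% in replicate 1 peaks and 2.27% in replicate 2 peaks, against 9.72%, 8.36% and 5.26% over the windows of all protein-coding genes. The median gene gave another order. Its window was 5.88% covered in the set and 0% over all protein-coding genes in the series-level list. The medians were 5.08% and 0% in replicate 1, and 0% in both groups in replicate 2.

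Little of the gene bodies was covered, and the peaks of the set sat in the flanks and at gene ends. In the series-level list, 4 of the 9 genes had a peak in the lower flank (24.3% of all genes), 3 in the gene body (30%) and 3 in the higher flank (24.2%). Replicate 1 gave the same 4, 3 and 3 genes, against 21.5%, 26% and 21.6% of all genes. In replicate 2, 2 genes had a peak in the lower flank, none in the gene body and 2 in the higher flank, against 14.7%, 23.5% and 14.8% of all genes. By bases, series-level peaks covered 14.6% of the lower flanks, 2.14% of the gene bodies and 11.9% of the higher flanks of the 9 genes, against 8.66%, 10.4% and 8.71% over all protein-coding genes. Replicate 1 gave 13.7%, 2.11% and 9.4%, against 7.46%, 8.89% and 7.57%. In replicate 2 the flanks were covered about as much as over all genes, at 4.39% of the lower flanks (4.16% over all genes) and 4.93% of the higher flanks (4.35%), and peaks covered none of the 18946 bp of gene body, against 5.89% over all genes. Against all genes, the greater coverage of the flanks in the series-level list and in replicate 1 was thus not seen in replicate 2. Other genes in the length range of the set had 3.38% and 3.54% there. In chromosome centres, 5.55% of lower and 7.25% of higher flanks of the 4 genes were covered in replicate 2, against 1.64% and 1.72% for others. The 5 genes on the arms had 3.46% and 3.08%, against 5.69% and 5.94% for other arm genes. Each of these replicate 2 shares in centres and on arms came from 1 peak. In centres the peaks were those at *syp-4* (222 bp, lower flank) and *syp-3* (290 bp, higher flank). On the arms they were those at *rec-8* (173 bp, lower flank) and *syp-2* (154 bp, higher flank).

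By bases, the low coverage of gene bodies was also seen beside genes of like length and, separately, beside genes of like place. By count, a gene-body peak was not rarer in the set in 2 lists. It was found for 33.3% of the 9 genes, against 30% of all genes (series level) and 26% (replicate 1). In replicate 2 no gene of the set had one, against 23.5% of all genes. With only 9 genes, these differences were not tested. Among the 11597 other protein-coding genes within the length range of the set (1073 to 4072 bp), 6.51% of gene-body bases lay in series-level peaks and 3.81% in replicate 2 peaks. The 4 central genes had 0.441% of their gene bodies in series-level peaks, against 4.32% for other central genes. That share was the 27 bp of the *syp-4* peak inside the gene, which is less than the uncertainty between builds. The 5 genes on the arms had 2.95%, against 13.5% for other genes on the arms. Each of the 3 series-level peaks that touched a gene body crossed the lower end of that gene (*syp-2*, *syp-4* and *rec-8*), and the same 3 genes had such a peak in replicate 1. A peak across either end was found for 10.6% of all genes in the series-level list and for 9.12% in replicate 1. In replicate 2, no peak crossed an end of any of the 9 genes, against 4.55% of all genes. With genes moved by 150 bp, 3 of the 8 series-level peaks changed zone, those at the lower end of *syp-2*, the lower end of *syp-4* and the higher flank of *htp-3*. Only the *syp-2* peak at the lower end had its midpoint inside a gene of the set.

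**Figure D3:**
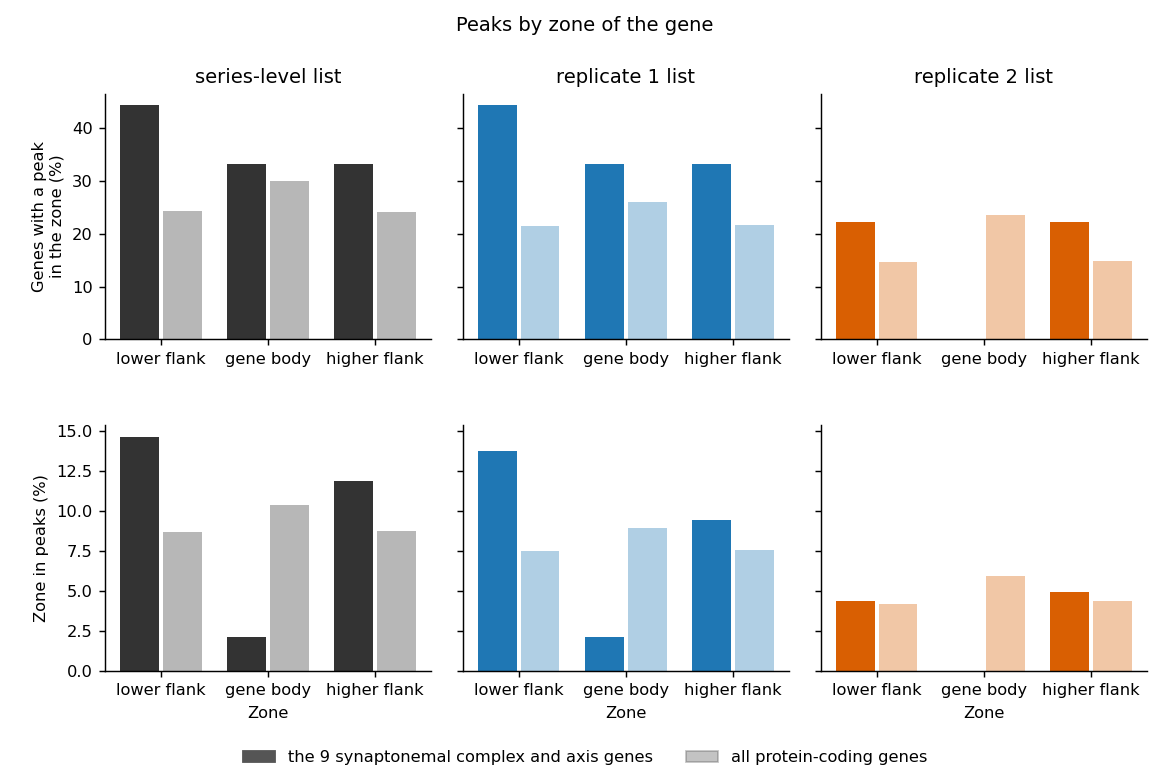
Upper row: percent of genes with at least 1 peak in the lower flank, the gene body or the higher flank (1 kb flanks named by coordinate). Lower row: percent of the bases of each zone in peaks. Dark bars are the 9 genes and pale bars all protein-coding genes, with a column for each list. The bar for the gene bodies of the 9 genes is lower than that of all genes in the lower row of each list (2.14% against 10.4% in the series-level list), and it is at 0 in replicate 2.

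The same peaks were also sorted by whether they touched a protein-coding gene. Because these are the peaks counted above, the sorting gives no independent support. The shares beside it cover genes of every length, not only those in the length range of the set. Of the 8 series-level peaks in the 9 windows, 4 touched no protein-coding gene, 3 covered a gene end and 1 lay within a gene with no end covered (the peak inside W02A2.9). Over the 19450 series-level peaks in the window of any protein-coding gene, 22% touched no protein-coding gene, 10.5% covered a gene end and 67.4% lay within a gene. In replicate 1 the 8 peaks fell as 4, 3 and 1, against 23.1%, 10.5% and 66.4%, and in replicate 2 the 4 peaks fell as 3, 1 and 0, against 18.5%, 6.58% and 74.9%. The peaks of the set were 164 to 618 bp wide in the series-level list, with a median of 392 bp, against a median of 261 bp over peaks in any gene window. In replicate 2 their median width was 197.5 bp, against 229 bp, so the greater width was not shared by both replicate lists. Median scores were 14.1 at series level, 9.56 for replicate 1 and 15.7 for replicate 2, against 13.4, 11.1 and 10.3 over peaks in any gene window.

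Other genes of the meiotic programme were examined as 5 lists, and 55 of 56 symbols were found in the gene table. In the series-level list 34 of the 55 (61.8%) had a peak in the window, and 19 (34.5%) had peaks in both replicate lists, against 47% and 29% of all protein-coding genes. Among the 4 further genes of the central region, *syp-5* and *skr-1* had a series-level peak, and *syp-5* alone had one in both replicates, with 2.39% of its window covered. Of the 11 cohesin and axis-associated genes, 8 had a series-level peak (72.7%) and 4 had peaks in both replicates (36.4%). *scc-1*, the mitotic counterpart of *rec-8*, had 17.3% of its window in series-level peaks, 17% in replicate 1 peaks and 12% in replicate 2 peaks. The cohesin loader gene *scc-2* had 6.4% and *wapl-1*, whose product releases cohesin from chromatin, had 7.08% of the window in series-level peaks.

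Of the 11 genes that act in pairing, 5 had a series-level peak (45.5%) and 3 had peaks in both replicates (27.3%), close to the 47% and 29% of all protein-coding genes. *chk-2*, which encodes a kinase needed for pairing and for double-strand breaks, had the most coverage of all 5 lists, with 37.2% of its window in series-level peaks, 30.5% in replicate 1 peaks and 30.9% in replicate 2 peaks. Among the pairing genes with peaks in both replicates, *hal-3* followed with 18.1% and the pairing-centre gene *zim-1* with 9.97%. *zyg-12* had 13.4% in series-level peaks but no peak in replicate 2. Of the 16 genes for double-strand breaks and their repair, 12 had a series-level peak (75%) and 6 had peaks in both replicates (37.5%). *rec-1* had 33.1% of its window in series-level peaks, *brc-1* 15.5% and *spo-11*, which encodes the enzyme that makes the breaks, 13.8%. Of the 14 crossover genes, 8 had a series-level peak (57.1%) and 6 had peaks in both (42.9%), led by *zhp-4* with 28.0% and *cosa-1* with 20.3%. *brc-1* was counted in the break list and in the crossover list. These lists were not tested against other genes.

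**Figure D4:**
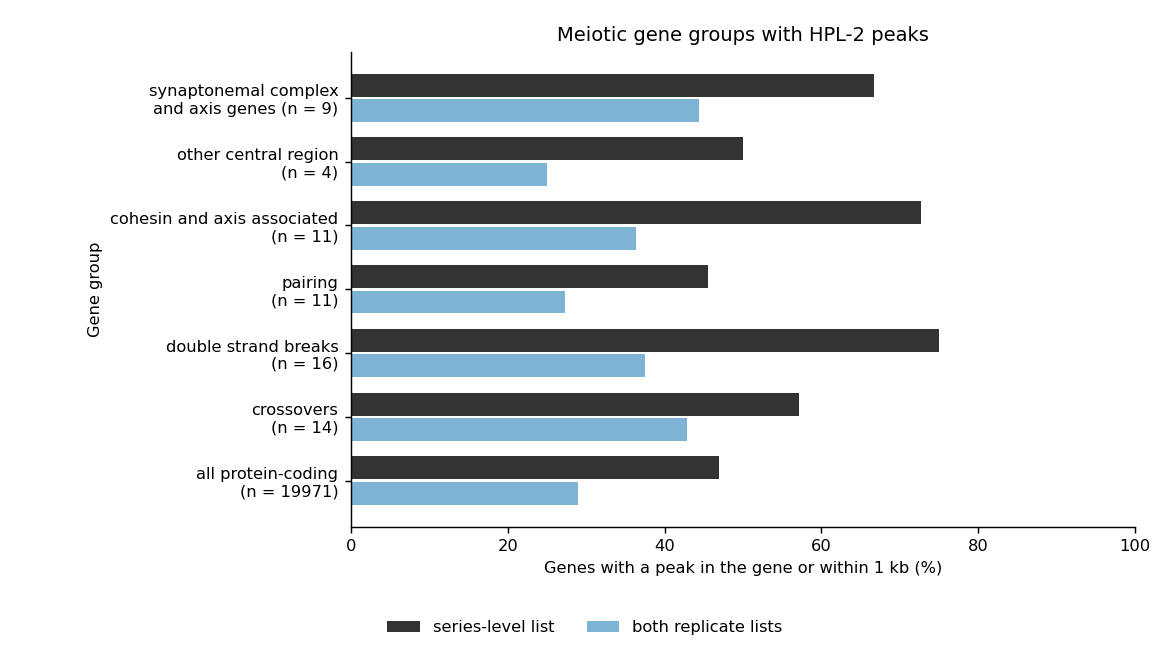
Percent of genes in each meiotic group with at least 1 peak in the gene or within 1 kb of it, in the series-level list (black) and in both replicate lists (light blue), with the number of genes in brackets. The 9 synaptonemal complex and axis genes stand at 66.7% and 44.4%, and all protein-coding genes at 47% and 29%.

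The genes most like *syp-3* and *syp-2* were sought among these 55 genes. These 2 had the highest sum of window coverage over the 2 replicate lists, at 26.9 and 17.2 percentage points, with *rec-8* close behind at 16.2, and *syp-2* was among the 2 highest in neither list alone. The measure was the Euclidean distance over 6 values, the percent of each of the 3 zones in peaks in each of the 2 replicate lists. Since strand was not known, the same flank by coordinate may be the promoter of 1 gene and the 3′ end of another. Likeness here is therefore by coordinate only. *hal-3* was nearest to *syp-3*, at 15.3 percentage points, with 45.1% of its higher flank in replicate 1 peaks and 18.2% in replicate 2 peaks. *spo-11* came next, at 18.9 points, with 39.1% and 17.2% of the higher flank in peaks. For *syp-2* the nearest genes were *wapl-1* at 19.6 points and *brd-1* at 22.1 points. Neither had both the gene-body and the higher-flank coverage seen at *syp-2* in replicate 1 (18.1% and 14.7%). *wapl-1* had coverage in the higher flank only, at 21% in replicate 1 and 17.5% in replicate 2. *brd-1* had coverage only in the gene body in replicate 1 (13.4%) and none in replicate 2, so it was like *syp-2* in that zone alone.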

How the data were processed

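Per the file headers, the peak lists are on WormBase WS220 and name MACS as the caller. The submitters' processing notes name BWA and ce10. Not given in the sources used here are the MACS version, its threshold, its control library and the way the series-level list was made. The score of each peak was used as deposited, for ranks and filters inside 1 list only. The depth of sequencing is unknown.

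Gene positions came from the RefSeq table of WBcel235 (protein-coding genes on 6 chromosomes), with 150 bp allowed for the change of build. Zones were the gene body and 1 kb flanks. Strand, genome and protein sequences were not used here, so the planned promoter and 3′ end counts, promoter motifs and protein identities were not made, and the lower and higher flanks replaced the first 2. The smc-1 symbol was not matched (him-1 is its other name). All 9 genes are named. Of each pathway list, up to 3 genes are named, those with peaks in both replicate lists and the highest series-level coverage, and other genes were named after their values were seen. Members and lists were chosen with earlier results of these data known. Python 3.11.15, pandas 2.3.3 and numpy 2.4.6 were used, and the code was tested on simulated peaks.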

Additional observations from a re-analysis of the deposited data

How the results depend on the processing

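Of 79 alternative settings over 9 results, 67 left a count within 1.5 times its value or a measured value within the SD of the 2 replicate lists, and 12 did not. The cause was not tested for any of the 12. The flank results, the distances to genes and their alternatives were chosen after seeing the data. Without 1 of the replicates (using the list of the other alone), 4 to 6 genes had a peak in the window, 2 to 4 had one in the lower flank, 0 to 3 in the gene body and 2 to 3 in the higher flank. The peaks over all 9 genes numbered 4 to 8, the windows were 2.27 to 6.71% covered, 19 to 30 of the pathway genes had a peak, and the median distance from a gene to the nearest peak was 290 to 2491 bp (286 bp in the series-level list). The lower values of the counts and coverage, and the longer distance, came from the replicate 2 list, the shorter list. Restricted to series-level peaks that both replicates held, 2 genes had a peak in the lower flank, the 9 genes had 4 peaks and 18 pathway genes had a peak. With peaks scoring at or above the median of their list, 1 gene (*syp-4*) had a peak in both replicate lists and the 9 genes had 5 peaks. By peak midpoint, 1 gene had a peak in the gene body. Shares over all protein-coding genes were not taken for the shared-peak, median-score and midpoint settings. Counts under those settings can therefore not be set against other genes. Moving genes by 150 bp, or widening zones by as much, moved none of these results beyond the limits above. For the distance the limit was 1556 bp, larger than the value of 286 bp, so no shorter distance could pass it. With genes moved by 150 bp the median distance was 136 bp in 1 direction and 241 bp in the other. No paired analysis was possible because the numbers that pair ChIP with input lead to input libraries not analysed here. Peak lists without read counts limit each result to peaks above an unknown threshold.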
